A study of Mus musculus with 18 samples.

Results

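10 of the 43430 genes in the count table were followed here, the immediate early and stress transcription factors Fos, Fosb, Jun, Junb, Egr1, Atf3, Ier2, Ier3, Klf4 and Klf6. They were taken by name, through their Ensembl gene identifiers, and all 10 passed the filter on low counts that left 13596 genes for testing. The libraries came from myofibers isolated with collagenase II from the quadriceps of young adult C57BL/6 mice, with 1 library per mouse. There were 18 libraries in 6 groups of 3, namely males and females given vehicle, weekly prednisone or daily prednisone by injection for about a month. The vehicle was DMSO, and in the weekly groups the steroid was given on one day of the week and vehicle on the others. No allele or transgene distinguished the groups, every quadriceps was digested and filtered, and no library of undigested muscle was analysed here. Total counts per library ran from 10506661 to 14686654. Replicates of a group differed by far more than sampling noise (smallest chi-square per degree of freedom 13.1), so none was a repeat count of another. That each came from a separate mouse was taken from the study's methods.

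Immediate early genes are switched on within minutes of a stimulus, from growth factors and contraction to injury and stress, without the need for new protein synthesis. Their products are mostly transcription factors: Fos, Fosb, Jun, Junb and Atf3 encode leucine zipper proteins that pair as AP-1 or related dimers, Egr1 encodes a zinc finger activator that joins mitogen signals to growth programs, and Klf4 and Klf6 encode Krüppel-like zinc finger factors. Ier2 encodes a small nuclear regulator, and Ier3 encodes a stress-inducible protein that modulates survival signaling. In skeletal muscle they respond to contraction and damage, and enzymatic dissociation of tissue is itself a known inducer of the class, so their values are given per library as well as per group.

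The promoters show what these genes share and where they differ in sequence. RefSeq starts on GRCm38.p6 were found for 8 of the 10 genes, those other than Egr1 and Ier2, and the 250 bases before each start were searched on both strands. The letters TGACG, the core shared by cAMP response elements, were found in 5 of these 8 promoters, those of Fos, Fosb, Junb, Atf3 and Klf4, and in 17.9% of 27025 promoters of the same length. The form TGACATCA, an AP-1-like site first known from the Jun promoter, was found in 2 of the 8, Jun and Klf6, and in 3.02% of all promoters. The 5 AP-1 family promoters are shown 5′ to 3′ on the strand of the gene, with these letters (or their reverse complement) in capitals; they are shown because Fos, Fosb and Atf3 had the extremes of level or spread described next and Jun carried the longer motif. They lie at chr12:85473640-85473889 on the plus strand for Fos and, on the minus strand, at chr7:19310046-19310295 for Fosb, chr4:95052223-95052472 for Jun, chr8:84978749-84978998 for Junb and chr1:191183334-191183583 for Atf3.
Fos: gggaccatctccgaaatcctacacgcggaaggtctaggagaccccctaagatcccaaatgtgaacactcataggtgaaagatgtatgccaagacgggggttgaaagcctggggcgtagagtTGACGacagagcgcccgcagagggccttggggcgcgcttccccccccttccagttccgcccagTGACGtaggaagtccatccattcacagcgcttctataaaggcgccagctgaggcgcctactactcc
Fosb: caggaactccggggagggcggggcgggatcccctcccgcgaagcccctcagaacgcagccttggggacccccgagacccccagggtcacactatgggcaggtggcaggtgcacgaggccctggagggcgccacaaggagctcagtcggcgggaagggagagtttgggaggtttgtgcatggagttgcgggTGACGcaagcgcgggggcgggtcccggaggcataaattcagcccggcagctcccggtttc
Jun: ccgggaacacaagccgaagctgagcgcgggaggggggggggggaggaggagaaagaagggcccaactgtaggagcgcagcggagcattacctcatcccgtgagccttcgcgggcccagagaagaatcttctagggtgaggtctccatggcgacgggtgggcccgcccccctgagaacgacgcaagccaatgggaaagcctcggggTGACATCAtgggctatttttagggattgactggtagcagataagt
Junb: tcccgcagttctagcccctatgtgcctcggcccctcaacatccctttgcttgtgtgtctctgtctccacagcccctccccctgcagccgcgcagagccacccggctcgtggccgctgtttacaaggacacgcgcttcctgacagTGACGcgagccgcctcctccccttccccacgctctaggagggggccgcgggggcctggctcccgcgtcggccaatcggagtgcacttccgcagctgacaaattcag
Atf3: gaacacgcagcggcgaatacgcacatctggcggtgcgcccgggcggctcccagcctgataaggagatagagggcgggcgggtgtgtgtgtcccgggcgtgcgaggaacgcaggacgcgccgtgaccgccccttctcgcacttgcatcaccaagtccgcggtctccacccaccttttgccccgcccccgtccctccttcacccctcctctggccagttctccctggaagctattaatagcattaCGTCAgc

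In GENCODE vM21 the Fos and Junb windows lay outside any annotated gene, and 6 bases of the Fosb window fell in exons of Fosb. The Jun window lay within the antisense gene Junos, outside its exons. The Atf3 window lay wholly inside the longer annotated Atf3 gene, with 7 of its bases in exons, since RefSeq starts Atf3 downstream of the outermost GENCODE start. The GC box GGGCGG was in 7 of the 8 promoters (32.9% of all) and the TATA box TATAAA was found in Fos alone (13% of all). No match was found in the 8 promoter windows for the serum response element's CArG box (1.40% of all promoters) or for TGACGTCA (1.62%). None was found there for TGACTCA or TGAGTCA (4.43%), or for the palindromic glucocorticoid response element (0.381%). Sequence farther upstream of these windows was not searched, nor was any promoter sequence of Egr1 and Ier2. Whether these elements lie there was not tested.

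In the deposited table Fos (ENSMUSG00000021250) lies at chr12:85473890-85477273 on the plus strand and Fosb (ENSMUSG00000003545) at chr7:19302721-19310045 on the minus strand. Jun (ENSMUSG00000052684) lies at chr4:95049034-95052222, Junb (ENSMUSG00000052837) at chr8:84976909-84978748 and Atf3 (ENSMUSG00000026628) at chr1:191170296-191218039, all on the minus strand. These positions are those of mm10 annotation, with the same ends as in GENCODE vM21 for 7 of the 10 genes.

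The 10 genes were among the more abundant transcripts of the preparation. In RPKM, reads scaled to merged exon length and to library size, Fos stood highest in the 6 vehicle libraries at 416 ± 116 (SD, n = 6). Egr1 followed at 166 ± 65.3, then Jun at 162 ± 43.9, Atf3 at 149 ± 55.7 and Junb at 129 ± 42.5. Fosb at 90.3 ± 35.3 and Ier2 at 87.1 ± 21.1 came next, before Klf4 at 63.2 ± 18.1, Ier3 at 47.0 ± 21.4 and Klf6 at 33.9 ± 7.44. Apart from Fos and Egr1, and Ier2 and Klf4, each gap between neighbors in this order was smaller than the larger of their SDs. The order depends on the length used. The length in the deposited table was longer than the merged exon length for Fos, Egr1, Atf3 and Klf4, and shorter for Fosb, Junb and Klf6. For Fos and Egr1 it was longer than the gene's own span. With that length Fosb (150) and Junb (162) would stand above Egr1 (99.1) and Atf3 (72.8), and Fos would remain first at 224. Jun shares exonic positions with its antisense gene Junos, and without a stated strand setting the reads of both cannot be told apart.

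The lowest and the highest libraries stood in the same groups as libraries of ordinary level. Female weekly 1 was the lowest of the 18 libraries for all 10 genes, and female daily 1 was the next lowest for all 10. Together the 10 genes took 0.0595% of the counts of female weekly 1 and 0.131% of those of female daily 1, against 0.183% to 0.697% in the other 16 libraries. The highest share was that of female weekly 2, which ranked highest for 9 of the 10 genes and thus stood in the same group as the lowest library.

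Fos, the founding AP-1 partner, spanned a 12.3-fold range. It measured 515, 836 and 1163 CPM (counts scaled to TMM-adjusted library size) in the 3 vehicle males and 1179, 946 and 1228 CPM in the 3 vehicle females. In the weekly groups it measured 1292, 684 and 731 CPM in males and 132, 1615 and 1078 CPM in females, and in the daily groups 987, 1225 and 845 CPM in males and 354, 1188 and 1006 CPM in females. All groups overlapped, and 1 female of each prednisone group lay below every other library.

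Fosb, its close relative, whose long-lived variants build up with repeated stimulation, had the widest range of the 10 at 58.9-fold. It measured 20.1, 1184 and 660 CPM in weekly females, so that female weekly 1 lay 32.8-fold below the lower of its group mates. In daily females it measured 99.7, 792 and 578 CPM, and in vehicle females 697, 554 and 835 CPM. In males it measured 209, 432 and 655 CPM after vehicle, 730, 240 and 350 CPM after weekly prednisone and 668, 666 and 544 CPM after daily prednisone. Daily males thus held the narrowest values for Fosb and weekly females the widest.

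Egr1 measured 333, 572 and 771 CPM in vehicle males and 1033, 1301 and 973 CPM in daily males, and these groups did not overlap. Weekly males measured 877, 350 and 490 CPM. In females it measured 905, 698 and 1193 CPM after vehicle, 106, 1428 and 1036 CPM after weekly prednisone and 315, 1432 and 1074 CPM after daily prednisone, and all 3 female groups overlapped.

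Jun, the partner of Fos in the classical AP-1 dimer, measured 326, 422 and 538 CPM in vehicle males against 630, 836 and 580 CPM in daily males, again without overlap. In females it measured 574, 511 and 738 CPM after vehicle and 228, 859 and 669 CPM after daily prednisone. Its range over the 18 libraries, 7.75-fold, was narrower than that of Fos. Junb, a Jun relative that often restrains it, ranged from 40.1 CPM in female weekly 1 to 600 CPM in female weekly 2, with a median of 335 CPM.

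Atf3, an ATF/CREB factor of the stress response that often acts as a repressor, spanned 27.8-fold. Female weekly 1 had 23.7 CPM and female daily 1 had 30.9 CPM, against 370 CPM in the lower of the other weekly females and 296 CPM in the lower of the other daily females. No other library lay under 144 CPM, the value of male vehicle 1.

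The remaining genes followed the same libraries. Ier2 ranged from 23.7 to 242 CPM, Ier3 from 5.70 to 104 CPM, Klf4 from 45.0 to 354 CPM and Klf6 from 38.7 to 255 CPM. Each had its lowest value in female weekly 1 and its next lowest in female daily 1. The lowest single count behind any of these values was 85 reads, for Ier3, so counting error is small beside these differences. When both low libraries were left aside, the ranges of the 10 genes shrank to between 2.66-fold for Klf6 and 5.65-fold for Fosb.

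**Figure D1:**
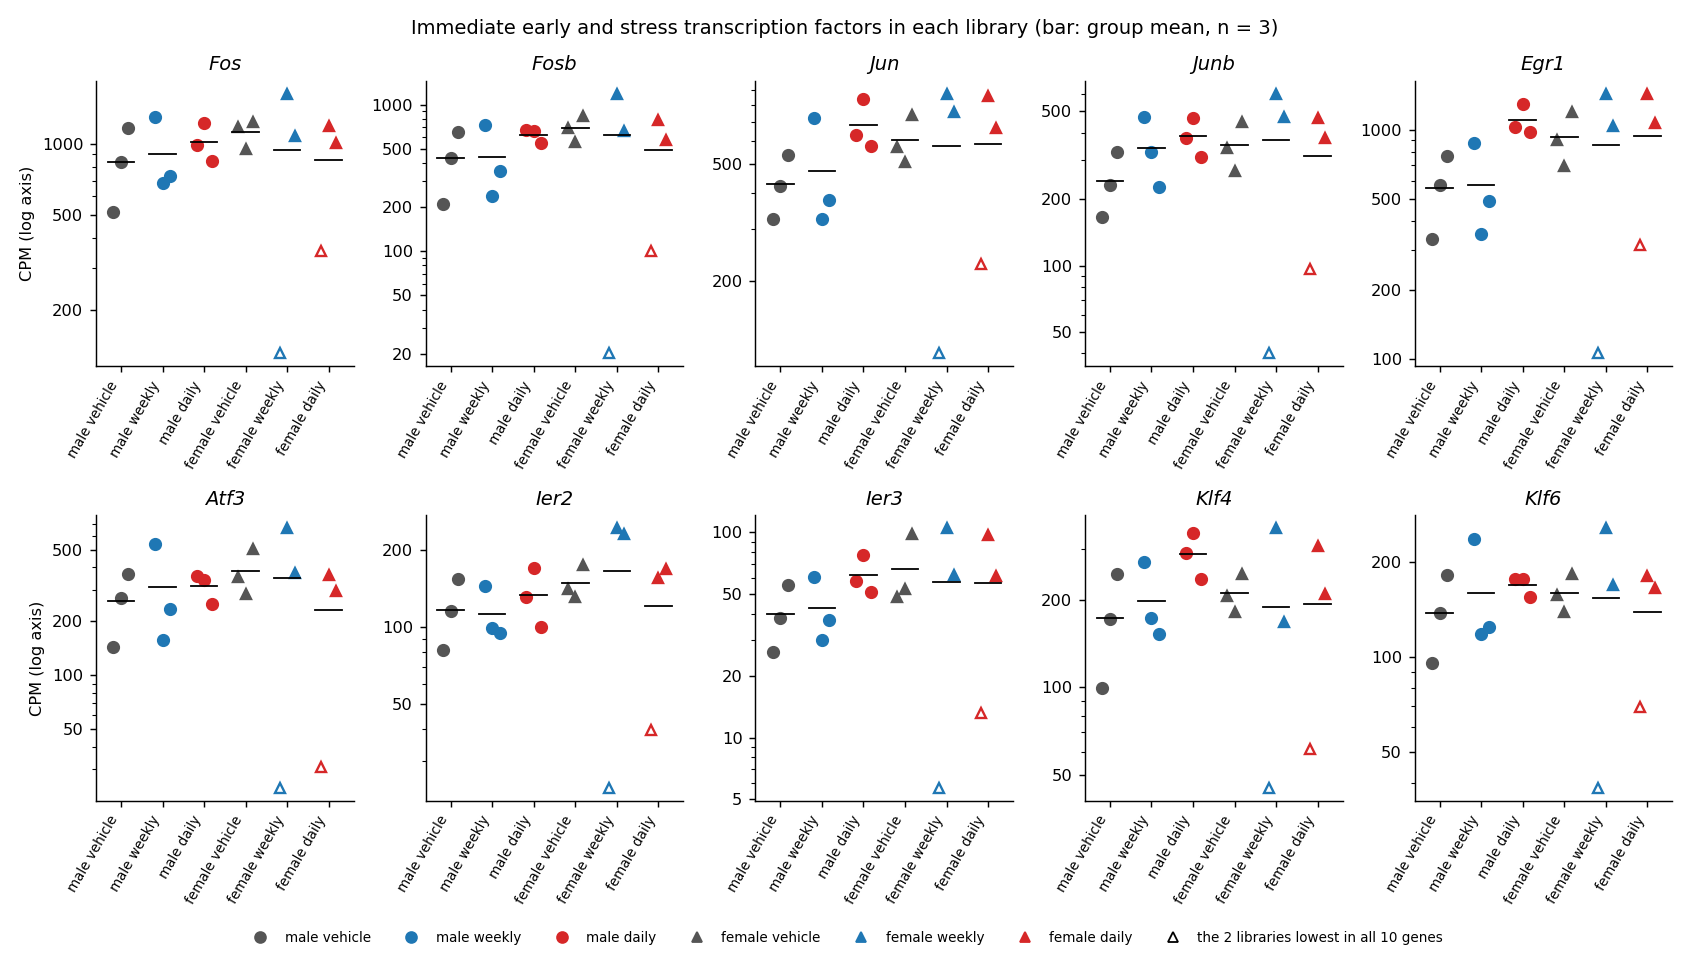
CPM of the 10 genes in each library, on a log axis, by sex and treatment, with 3 libraries per group and a bar at the group mean. Open triangles mark female weekly 1 and female daily 1, which were the lowest 2 libraries in every panel, while the Egr1 and Jun points of daily males all lie above those of vehicle males.

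The spread between libraries of one group set the 10 genes apart from most of the transcriptome. Their pooled within-group SD of log2 CPM ran from 0.73 for Klf6 to 1.54 for Fosb, beside a median of 0.28 over all tested genes. All 10 lay above the 90th percentile of tested genes, from 94.4 for Klf6 to 99.7 for Fosb. Compared with the 500 tested genes nearest in mean level, the percentiles ran from 97.0 to 100. The biological coefficient of variation that edgeR fitted to each gene was 0.42 for Klf6, 0.51 for Fos, 0.72 for Atf3 and 0.74 for Fosb, against a common value of 0.22. Much of this spread rested on female weekly 1 and female daily 1: without them the SDs were 0.32 to 0.59 and the percentiles 63.3 to 91.8, and only Atf3 and Fosb stayed above the 90th percentile. Without female weekly 1 alone, 6 of the 10 did.

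**Figure D2:**
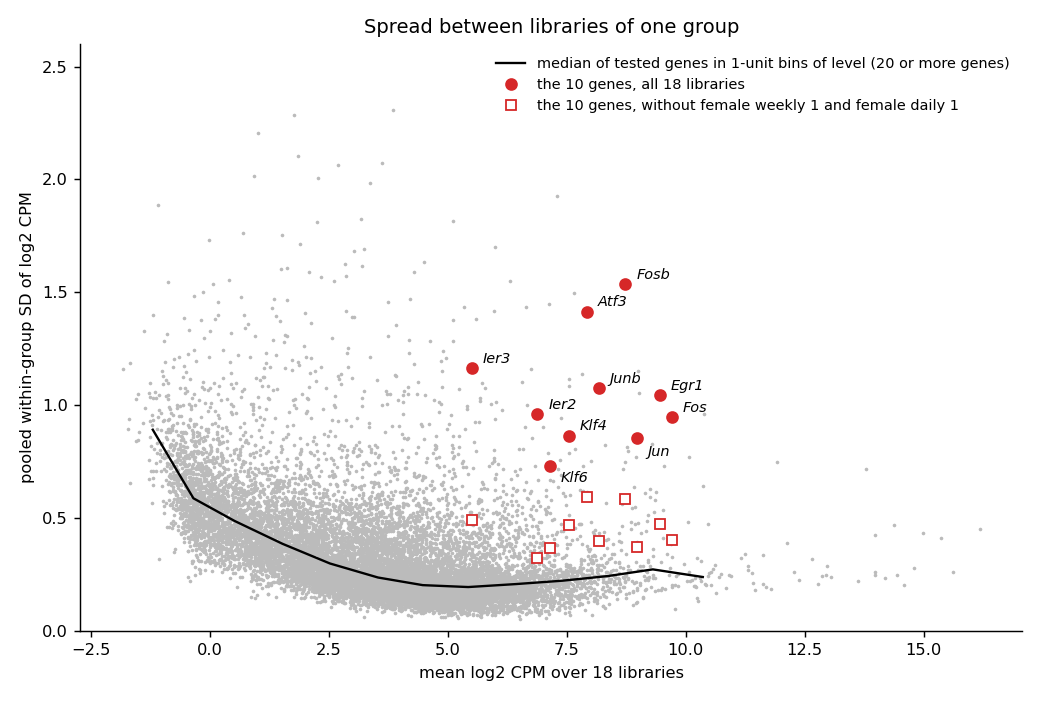
Pooled within-group SD against mean log2 CPM for all tested genes (gray; 3 genes lie above the plotted range) with the 10 genes in red. Filled points use all 18 libraries and sit between 0.73 and 1.54, while open squares leave out female weekly 1 and female daily 1 and sit between 0.32 and 0.59, nearer the black line of binned medians.

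The 10 genes rose and fell together from library to library. Over the 18 libraries the Pearson r of log2 CPM between pairs ran from 0.887 to 0.992 and Spearman's rho from 0.726 to 0.967. All 45 pairs passed an adjusted p under 0.05 in a permutation test of 100000 resamples (largest adjusted p 3e-05 for Pearson and 0.00108 for Spearman; two-sided; 1e-05 is the smallest p that these resamples can give). Fos and Fosb were the closest pair, at r = 0.992 and rho = 0.959, and Jun and Egr1 also moved closely, at r = 0.986 and rho = 0.967. The 2 libraries farthest from the median were female daily 1 and female weekly 1 for these pairs, and without the 2 farthest libraries r ran from 0.619 for Ier2 with Klf4 to 0.974 for Jun with Egr1. Within groups, with the group means subtracted, r was 0.937 to 0.994.

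The genes were not equally steep in this common movement. For each unit of log2 change in the mean of the other 9 genes, Fosb changed by 1.53 units and Atf3 by 1.39, whereas Klf6 changed by 0.67, Klf4 by 0.78 and Jun by 0.79. Egr1 (0.99) and Junb (1.01) moved about in step with the mean of the others. These slopes come from fits over all 18 libraries with the 6 group means as terms, and are given as a description.

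Other genes followed the 10 with equal closeness. The 10 tested genes whose within-group deviations were most like the mean z score of the 10 were Socs3 (r = 0.994), Zfp36 (0.989), Ppp1r15a (0.988), Egr2 (0.988), Rhob (0.985), H3f3b (0.984), Tnf (0.983), Fam43a (0.982), Gem (0.982) and Socs1 (0.981), each over 18 libraries and given without a p. Socs3 and Socs1 encode feedback inhibitors of cytokine signaling, Zfp36 encodes an RNA-binding protein that destabilizes inflammatory messages, Ppp1r15a encodes a phosphatase subunit of the stress response, and Egr2 is a relative of Egr1. Without the 2 low libraries these r values were 0.874 to 0.963. Of 66 tested genes in lists of other AP-1, EGR, NR4A and KLF genes, other immediate early factors, feedback inhibitors and secreted products, 31 had r above 0.9 and 60 had r above 0.5, beside 2.03% and 25.0% of the 13519 tested genes outside the 10 that were compared this way, a description of lists chosen with earlier results known. Without the 2 low libraries 54 of the 66 had r above 0.5 and the median fell from 0.895 to 0.789.

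Markers of other cells moved with the 10 genes. The labeled tissue was borne out by its defining markers, since Acta1 was at 22680 to 42050 CPM, Ckm at 15910 to 32020 CPM and Myh4 at 32350 to 73090 CPM, and the mean log2 CPM of 10 myofiber markers was 12.3 to 13.4. Endothelial, fibroblast and mural markers were nevertheless present in all libraries. Female weekly 1 had the lowest endothelial score (5.90, against 6.25 to 7.49 in the other 17 libraries) and the lowest smooth muscle and pericyte score (5.57), and female daily 1 had the lowest fibroblast score (6.42). Low scores were not always matched by low levels of the 10 genes, since female daily 3 had an endothelial score of 6.39. Female weekly 1 and female daily 1 had the highest myofiber scores, 13.4 and 13.3. These 2 libraries also had the lowest shares of mitochondrially encoded counts, 13.1% and 11.7%, in a range of 11.7% to 36.4%.

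Of 80 relations between the 10 genes and 8 marker lists, 30 passed the adjusted threshold by Pearson's r, the 10 of each gene with the endothelial, fibroblast, and smooth muscle and pericyte lists. Pearson's r was 0.767 to 0.840 with the endothelial list (rho 0.620 to 0.816, largest adjusted p 0.000662), 0.728 to 0.807 with the fibroblast list (rho 0.711 to 0.862, largest adjusted p 0.000747) and 0.796 to 0.871 with the smooth muscle and pericyte list (rho 0.629 to 0.841, largest adjusted p 0.0004), all by permutation test. Without the 2 libraries farthest from the median score of each list, r remained 0.562 to 0.740, 0.677 to 0.767 and 0.587 to 0.798, respectively. With the Schwann cell list no Pearson relation passed (r 0.425 to 0.528) while all 10 passed by Spearman's rho (0.583 to 0.790). No relation passed with the macrophage and leukocyte list (r −0.123 to 0.031), the satellite cell list (0.018 to 0.220), the adipocyte list (−0.238 to −0.060) or the blood list (0.090 to 0.450). With group means subtracted the number of relations past the threshold was 50, with those of the Schwann cell list (r 0.583 to 0.715) and the blood list (0.551 to 0.693) added. That permutation test shuffled values freely over all libraries although the group means had been removed. Its p-values can therefore be too small, and the count of 50 is given with that limit. In these bulk samples, fewer cells of a type and less RNA per cell cannot be told apart, and the part of these cells in the levels of the 10 genes was not tested.

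**Figure D3:**
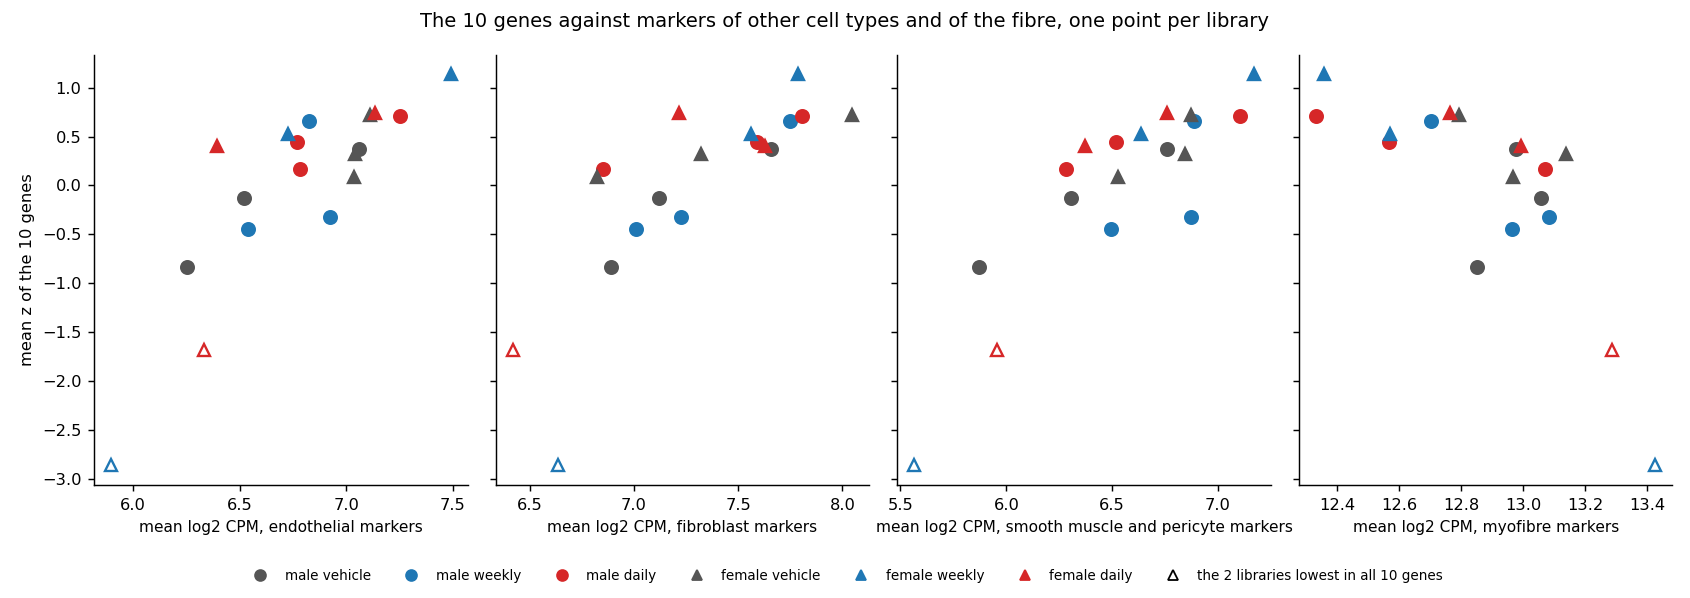
Mean z score of log2 CPM of the 10 genes against the mean log2 CPM of endothelial, fibroblast, smooth muscle and pericyte, and myofiber markers, 1 point per library. Female weekly 1 and female daily 1 (open triangles) lie lowest on the vertical axis, at the low end of the first 3 marker scores and at the high end of the myofiber score.

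Daily prednisone was compared with vehicle to ask how exposure each day changes the transcriptome of the fiber. In males, all 10 genes were higher in the daily group, with a median log2 fold change of 0.59, where 54.5% of all tested genes were higher and their median was 0.05. None of the 10 passed an adjusted p under 0.05 in edgeR's quasi-likelihood test, where 6.46% of all genes did. None reached an unadjusted p under 0.05 either, which 22.8% of all genes did, and DESeq2 and limma-voom also called none. Egr1 had the largest difference, 0.98 ± 0.69 (SE, edgeR's quasi-likelihood test, adjusted p = 0.425, 95% interval −0.50 to 2.46). Klf4 differed by 0.74 ± 0.61, Junb by 0.67 ± 0.70 and Jun by 0.67 ± 0.58. The groups of 3 did not overlap for Egr1 and Jun, 2 of the 10 genes, whereas 16.4% of all tested genes lay wholly higher in daily males and 33.4% were separate in either direction. In the same comparison 7 of 7 endothelial markers were higher (median 0.34) and 6 of 7 smooth muscle and pericyte markers were (median 0.41), none of them called. Marker scores of daily and vehicle males overlapped for each of these lists and for fibroblasts. Endothelial scores were 6.767 to 7.255 in daily males and 6.254 to 7.06 in vehicle males. Smooth muscle and pericyte scores were 6.281 to 7.106 and 5.873 to 6.757, and fibroblast scores 6.849 to 7.808 and 6.887 to 7.655, respectively. The part of these cells in the differences was not tested.

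In females the same comparison gave the opposite tilt without a call. Only Egr1 was higher, at 0.01 ± 0.69, and the median of the 10 genes was −0.21, where 50.8% of all genes were higher, 0.382% were called and 17.3% had an unadjusted p under 0.05. Atf3 had the largest difference, −0.73 ± 0.90 (edgeR adjusted p = 0.718, 95% interval −2.65 to 1.20). Without female daily 1 and female weekly 1, 7 of the 10 genes were higher in daily females and their median was 0.18. The sex difference of the daily response was −0.85 in the median of the 10 genes, between −1.04 for Fosb and −0.50 for Klf6, with SEs of 0.71 to 1.32 and no adjusted p under 0.889 in edgeR. None of the 10 was higher in that difference, where 52.6% of all genes were, and none had an unadjusted p under 0.05, where 4.69% did. Without the 2 low libraries this median was −0.40, with 0 of 10 genes higher. For the weekly response the median sex difference was −0.29, with 1 of 10 genes higher (51.1% of all genes) and 0 of 10 at an unadjusted p under 0.05 (2.63% of all genes). Without the 2 low libraries all 10 genes were higher in that difference, at a median of 0.21, and none was called.

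Over both sexes, 7 of the 10 genes were higher after daily prednisone and the median was 0.13, with 0 of 10 called by edgeR, DESeq2 or limma-voom and 0 of 10 at an unadjusted p under 0.05. Of all genes 52.9% were higher, 15% were called by edgeR and 29.2% had an unadjusted p under 0.05. Without the 2 low libraries all 10 were higher (median 0.35), and the smallest adjusted p in edgeR, that of Egr1, was 0.0625 with a log2 fold change of 0.70 ± 0.25. In males alone it was 0.0804 in that fit. With all libraries the SEs of single genes within a sex were 0.50 to 0.93 on the log2 scale, and the 95% interval of the Egr1 difference in males, given above, covered 0.

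Weekly prednisone was compared with vehicle to ask what remains of the response when doses are spaced. In males 9 of the 10 genes were higher (51.6% of all genes), with a median log2 fold change of 0.13, and Junb had the largest difference at 0.50 ± 0.70 (edgeR adjusted p = 0.918). In females 2 of the 10, Ier2 and Junb, were higher (51.4% of all genes) and the median was −0.12, and without the 2 low libraries all 10 were higher at a median of 0.40. None of the 10 was called in either sex or over both by edgeR, DESeq2 or limma-voom, and none had an unadjusted p under 0.05. The share of all genes called by edgeR was 0 in these comparisons, although 5.71% had an unadjusted p under 0.05 in males, 7.97% in females and 11% over both sexes, and DESeq2 called 178 genes over both. Over both sexes 6 of the 10 genes were higher, beside 53.5% of all genes, and without the 2 low libraries all 10 were, at a median of 0.27 (smallest edgeR adjusted p 0.170). Against weekly prednisone, daily prednisone gave a median of 0.05, with 6 of 10 genes higher (47.6% of all genes) and 0 of 10 called, where 8.17% of all genes were. None of the 10 had an unadjusted p under 0.05 there, where 24.1% of all genes did. Daily and weekly comparisons share the same vehicle libraries. By the study's methods the last weekly dose came 2 days before sacrifice, while daily mice were dosed every day. Schedule and time since the last dose thus cannot be told apart.

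**Figure D4:**
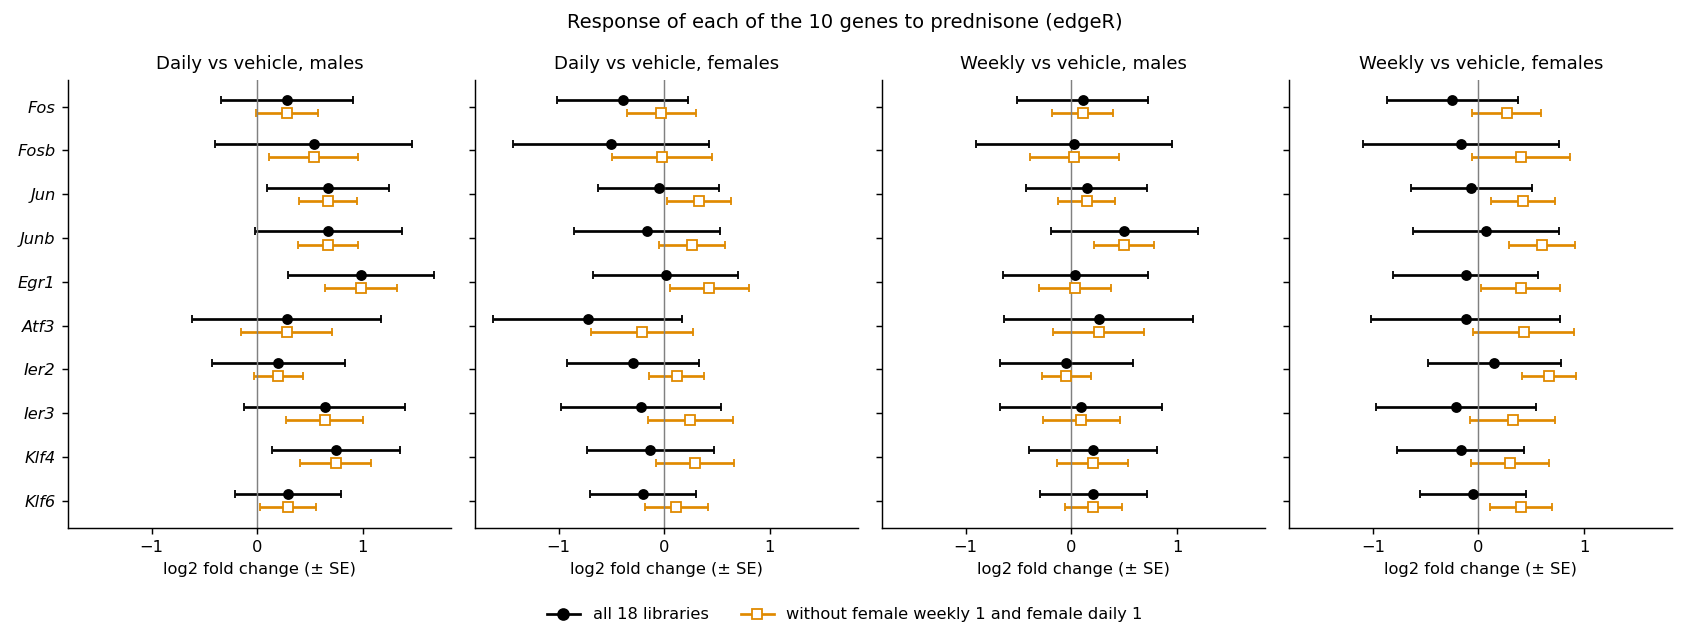
Log2 fold change ± SE of the 10 genes for each prednisone schedule relative to vehicle, by sex, from edgeR with all 18 libraries (black) and without female weekly 1 and female daily 1 (orange). In daily males all 10 black points lie above 0, with Egr1 highest at 0.98, while in both female panels the points move to the right when the 2 libraries are left out.

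Vehicle females and vehicle males were set side by side as a baseline. All 10 genes were higher in females, by a median of 0.52 on the log2 scale, where 53.4% of all genes were higher. The largest differences were those of Egr1 (0.74 ± 0.69), Ier3 (0.73 ± 0.77) and Fosb (0.69 ± 0.93). Their groups overlapped for all 10 genes, whereas 18.9% of all genes were separate, 9.66% with females higher. None of the 10 had an unadjusted p under 0.05, where 10.4% of all genes did, and edgeR called 0 of 10 (smallest adjusted p 0.740), where 0.765% of all genes were called. Male vehicle 1 was the lowest of the 6 vehicle libraries for all 10 genes, with endothelial and smooth muscle and pericyte scores of 6.25 and 5.87, the lowest of these 6 libraries too. Its fibroblast score of 6.89 was not the lowest, since female vehicle 2 had 6.82.

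Because the 10 genes shared one movement, each was also read against the other 9 in the same library, a comparison chosen after the levels had been seen. Egr1 stood apart here in both sexes. Its log2 CPM lay 1.77, 1.88 and 1.96 above the mean of the other 9 in daily males, against 1.28, 1.41 and 1.37 in vehicle males and 1.29, 0.99 and 1.36 in weekly males. In daily females it lay 2.12, 1.97 and 1.87 above that mean, against 1.66, 1.49 and 1.69 in vehicle females and 1.62, 1.56 and 1.68 in weekly females. In each sex the daily group lay wholly above both others, female daily 1 included. In males other genes were apart too, since the daily values of Fos (1.69 to 1.78) and Klf6 (−1.32 to −0.99) lay wholly below both other groups. In females the daily values of Fos and Klf6 overlapped the others. The share of all genes on this scale was not worked out.

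With the mean of the other 9 genes as a covariate in limma-voom over all tested genes, Egr1 was higher after daily prednisone by 0.45 ± 0.08 (SE) on the log2 scale over both sexes (limma-voom adjusted p = 0.000561). For males alone the fit gave 0.52 ± 0.11 (adjusted p = 0.00626), for females alone 0.37 ± 0.11 (adjusted p = 0.0469), and the sexes differed by −0.15 ± 0.16 (adjusted p = 0.999, 95% interval −0.48 to 0.19). Against weekly prednisone, daily prednisone gave 0.52 ± 0.08 (adjusted p = 0.000597), where 18.8% of all genes were called. Weekly prednisone against vehicle gave −0.07 ± 0.08 (adjusted p = 0.627, 95% interval −0.23 to 0.09), where 0.824% of all genes were called.

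Atf3 differed the other way. It lay 0.07, −0.27 and −0.23 from the mean of the other 9 in daily males, against −0.07, 0.21 and 0.18 in vehicle males. In daily females it lay −1.59, −0.23 and −0.19 from that mean, against 0.16, 0.05 and 0.31 in vehicle females, without overlap. In weekly libraries it lay 0.52, −0.29 and 0.18 from that mean in males and −0.78, 0.32 and 0.03 in females, and the daily and weekly groups overlapped in both sexes. In the same kind of fit Atf3 fell by 0.57 ± 0.12 after daily prednisone over both sexes (limma-voom adjusted p = 0.00288) and by 0.65 ± 0.17 in females (adjusted p = 0.0307), and in males the difference was −0.49 ± 0.17 (adjusted p = 0.0841, with 10.9% of all genes called). Daily against weekly prednisone gave −0.53 ± 0.12 (adjusted p = 0.00752, with 19.0% of all genes called), and weekly against vehicle gave −0.04 ± 0.12 (adjusted p = 0.892, with 1.02% of all genes called).

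Jun was the only other gene called, at 0.22 ± 0.07 over both sexes (limma-voom adjusted p = 0.0385), and this call was lost in 8 of 18 fits that each left out 1 library. In all, 3 of the 10 genes were called in the daily comparison over both sexes, each in the fit with the other 9 held constant, where 23.6% of all genes were called in the fit for Egr1, 23.0% in that for Atf3 and 23.5% in that for Jun. A count of 3 in 10 is thus near the share of all genes. The Egr1 and Atf3 differences over both sexes were called in 18 of 18 fits that left out 1 library, with Egr1 between 0.41 and 0.48 and Atf3 between −0.64 and −0.44. Without both female weekly 1 and female daily 1 they were 0.38 ± 0.08 (adjusted p = 0.00528) and −0.47 ± 0.11 (adjusted p = 0.00765). In females alone the calls did not hold up: 7.96% of all genes were called in the Egr1 fit and 7.60% in the Atf3 fit, Egr1 was called in 4 of 18 and Atf3 in 13 of 18 such fits, and without both low libraries neither was (adjusted p = 0.115 and 0.0608). In males Egr1 was called in 18 of 18, where 11.6% of all genes were called in its fit.

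**Figure D5:**
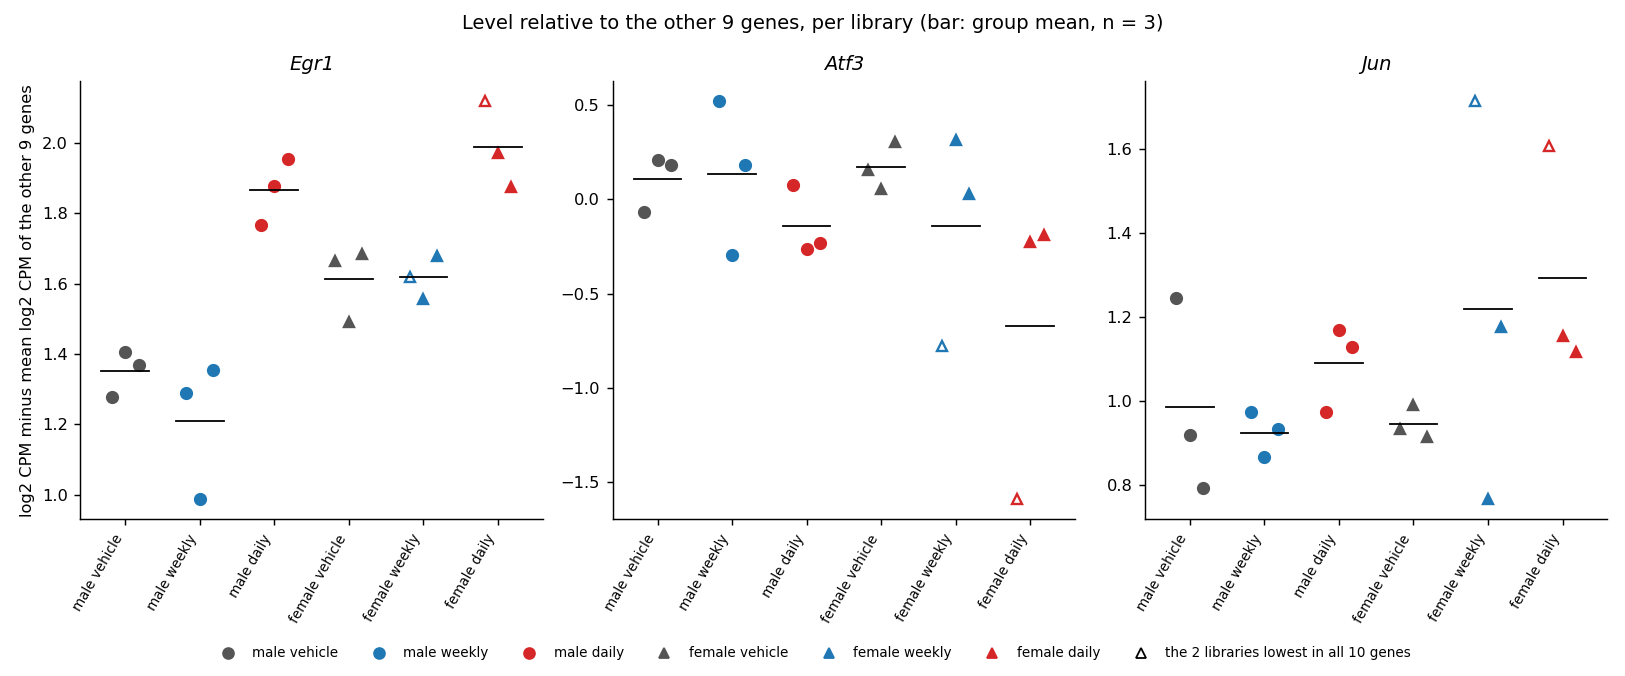
Log2 CPM of Egr1, Atf3 and Jun minus the mean log2 CPM of the other 9 genes, per library, with a bar at each group mean (n = 3). The daily groups of Egr1 lie at 1.77 to 1.96 in males and 1.87 to 2.12 in females, above all vehicle and weekly libraries of the same sex, while those of Atf3 tend lower.

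Relatives of the 10 genes were tested in the same comparisons. Among 6 tested AP-1 genes outside the 10, 8 EGR, NAB and NR4A genes, and 11 other immediate early factors, edgeR called none in daily or weekly prednisone against vehicle over both sexes, where it called 15% and 0 of all genes. Their medians in the daily comparison were 0.15, 0.18 and 0.30, beside 0.02 for all genes. Egr4, a sparsely expressed EGR relative, fell by 2.91 ± 0.85 in daily against weekly prednisone (edgeR adjusted p = 0.0475), from values of 0.067 to 10.2 CPM in weekly libraries to 0 to 0.818 CPM in daily libraries. The call was kept in 3 of 18 fits that left out 1 library, and limma-voom did not make it (adjusted p = 0.369). In daily prednisone against vehicle Egr4 differed by −2.50 ± 0.87 (edgeR adjusted p = 0.0661), which was called by DESeq2 (adjusted p = 0.0243) and by edgeR without the 2 low libraries (adjusted p = 0.0130). Batf2, Batf3, Nr4a3, Arc and Maff had the largest differences of these lists beside Egr4 and did not pass (edgeR adjusted p of 0.299 to 0.740).

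Of 10 other KLF genes, Klf9, a classical target of the glucocorticoid receptor, rose by 0.61 ± 0.13 after daily prednisone (edgeR adjusted p = 0.00565), and it was the one gene called in the list. Klf5 differed by 0.88 ± 0.31 (adjusted p = 0.0623), and Klf16 by 0.57 ± 0.24 after weekly prednisone (adjusted p = 0.375). Klf9 measured 58.9 to 93.7 CPM in vehicle libraries and 90.2 to 150 CPM in daily libraries. Female daily 1, low for Klf4 and Klf6, had 150 CPM of Klf9, the highest of the 18 libraries.

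Among 20 feedback inhibitors, which switch immediate early signaling off again, Dusp6, a phosphatase of ERK kinases, fell by 0.82 ± 0.26 after daily prednisone (edgeR adjusted p = 0.0488), a call kept in 4 of 18 fits that left out 1 library and lost in limma-voom (adjusted p = 0.0621). Gadd45a, a growth arrest gene, was higher in vehicle females than in vehicle males by 0.97 ± 0.19 (adjusted p = 0.0202), a call lost without male vehicle 1 or 2 or without female vehicle 1 or 2 (adjusted p up to 0.153). Tnfaip3 (−0.90 ± 0.64) and Dusp4 (0.91 ± 0.42 after weekly prednisone) had the largest other differences and did not pass. Of 11 tested secreted and adhesion products none was called, and the cytokine Lif differed by −1.42 ± 0.65 after daily prednisone (edgeR adjusted p = 0.159).

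Of 17 upstream regulators, Ep300, a histone acetyltransferase, rose by 0.59 ± 0.09 and Atf2, an ATF partner of Jun, by 0.46 ± 0.11 after daily prednisone (edgeR adjusted p = 0.000718 and 0.00853). Mrtfb, a coactivator of serum response factor, was higher in daily than in weekly libraries by 0.40 ± 0.12 (edgeR adjusted p = 0.0470), though it was called in 7 of 18 fits without 1 library. The Ep300, Atf2 and Klf9 calls were made in 18 of 18. Over the other 6 lists together, 1 of 66 tested genes rose and 1 fell after daily prednisone over both sexes and none did after weekly prednisone, beside 15% and 0 of all genes called in either direction. In vehicle libraries 60 of these 66 were higher in females, at a median of 0.48.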

How the data were processed

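RNA from isolated quadriceps myofibers was sequenced in 18 libraries. The authors deposited 1 table of raw counts per gene, made, per the submitters' notes, with TopHat2 2.1.0, Bowtie2 2.2.6 and HTSeq. The notes list builds mm10 and mm9, and the positions in the table match mm10. The annotation release and strand setting are not given in the sources used here. Of 43430 identifiers, 42462 matched a symbol in GENCODE vM21, and the other 968 held at most 0.0814% of a library's counts.

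Counts were filtered by group with edgeR 4.0.16 (minimum count 10), scaled by TMM and tested by quasi-likelihood over all 18 libraries with 6 group means in R 4.3.3, with p-values adjusted by Benjamini-Hochberg over 13596 genes. CPM on the log2 scale used a prior count of 2. The covariate fits used limma 3.58.1 with voom, and DESeq2 1.42.0 was an alternative. Both the covariate fits and the omission of female weekly 1 and female daily 1 were chosen after seeing the data. Correlations used SciPy 1.17.1. The scripts were tested on simulated data. Intervals for counts cover counting error only. The labels give separate replicates, taken as separate mice from the study's methods.

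The 10 genes and the gene lists were chosen with earlier results of these data known. In each other list the text names the genes called in any of the 10 comparisons, at most 4 per list by smallest adjusted p, and the gene with the largest difference over both sexes for daily and for weekly prednisone. Marker, chaperone and receptor target genes are given in the closing section. A gene of these lists that met the rule is not reported here.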

Additional observations from a re-analysis of the deposited data

How the results depend on the processing

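No setting tried with edgeR, DESeq2 or limma-voom called any of the 10 genes without the covariate, and the smallest adjusted p in any of them was 0.0625. Of 5120 values of named genes under alternatives, 4961 kept their side of the threshold, 125 lost a call and 28 gained one. The 4961 include uncalled values that changed sign by less than their SE. Another 6 uncalled values changed sign by at least their SE, and 0 changed sign with a call in either fit. Over all genes, DESeq2 called 1350 for daily against vehicle in males (edgeR 878), 503 in females (edgeR 52), 149 for weekly against vehicle in females and 178 over both sexes (edgeR 0), 2 for the sex difference of the daily response (edgeR 0) and 225 for females against males on vehicle (edgeR 104). The daily female count was 29 with no filter and 198 with a minimum count of 50. Without female weekly 1 and female daily 1 the counts were 1666 for daily males, 642 for daily females, 3077 for daily over both sexes (2033 with all libraries) and 197 between the sexes on vehicle. With them left out, 2 of the 10 genes had a spread above the 90th percentile and 0 were called in daily females with the covariate. With group means subtracted, 50 marker relations passed, under the limit of that permutation test given above.

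Leaving out 1 library at a time gave 1340 to 2475 genes for daily over both sexes, 0 to 299 in females and 92 to 1305 in males (92 without male vehicle 1). It gave 568 to 1267 for daily against weekly (1111 with all), 43 to 175 between the sexes on vehicle, 0 to 174 for weekly over both sexes, 0 to 253 in females (both highest without female weekly 2) and 0 to 1 in males, and 0 to 1 for the sex difference of the daily response. Of the 10 genes, 6 to 10 kept a spread above the 90th percentile, and with the covariate 2 to 3 were called for daily over both sexes, 0 to 2 in daily females, 1 to 2 in daily males and 2 to 3 for daily against weekly. Marker relations past the threshold numbered 30 to 41.

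The labels give replicate numbers no shared origin, and the column names carry other animal numbers. Of same-numbered pairs, 17 of 45 had deviations correlated above 0.1. Of pairs of groups, 1 of 15 had all 3 above it, weekly and daily females (0.441 to 0.501), which hold both low libraries as replicate 1. These groups were set against each other only within the comparison of daily with weekly prednisone over both sexes. With the replicate number as a block, edgeR called 8 genes for daily females, 887 for daily males, 2002 over both sexes and 0 of the 10 genes. In daily against weekly prednisone, Egr4 and Fkbp5 lost their calls with that block (edgeR adjusted p = 0.0575 and 0.0632), and the other genes named there kept theirs.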

Other observations

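Lists of other kinds held calls in the same daily comparison over both sexes in which none of the 10 immediate early genes passed in edgeR's quasi-likelihood test. Among 13 chaperones known to be induced by tissue dissociation, Hspe1, a mitochondrial chaperonin subunit, fell by 0.42 ± 0.12 on the log2 scale (SE, edgeR adjusted p = 0.0293; 0.0792 at most when 1 library was left out, with the call kept in 14 of 18 fits), and Hspa1b, an inducible HSP70, differed by 1.47 ± 0.49 (edgeR adjusted p = 0.0559) and was called by DESeq2 (adjusted p = 0.0247), by limma-voom (0.0382), and by edgeR with the stricter filter (0.0394) or without female weekly 1 and female daily 1 (0.0147). Of 10 targets of the glucocorticoid receptor, Klf9 was called, as given above, and Zbtb16 and Fkbp5 were higher in daily than in weekly libraries by 0.76 ± 0.15 and 1.03 ± 0.30 (edgeR adjusted p = 0.00923 and 0.0460). Without 1 library at a time Zbtb16 was called in 18 of 18 fits and Fkbp5 in 5 of 18. Without female weekly 1 and female daily 1 the Fkbp5 difference was 0.91 (edgeR adjusted p = 0.136). In weekly prednisone against vehicle Fkbp5 differed by −0.61 ± 0.30 (edgeR adjusted p = 0.470).

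Markers of other cells were also called. The adipocyte markers Cidec, Adipoq, Cfd, Retn and Pck1 rose by 3.35 ± 0.69, 2.99 ± 0.64, 2.67 ± 0.57, 2.51 ± 0.55 and 4.01 ± 0.88 (edgeR adjusted p of 0.00631 to 0.00838), although the adipocyte score did not follow the 10 genes across libraries. All 10 adipocyte markers were higher after weekly prednisone too, at a median of 2.86 beside 2.59 for daily, but edgeR called none there. Pck1 differed by 4.44 ± 0.90 after weekly prednisone (edgeR adjusted p = 0.134), which DESeq2 called (adjusted p = 2.31e-05). Cd68, a macrophage lysosomal protein, rose by 1.41 ± 0.21 (edgeR adjusted p = 0.000961). C1qb was lower in daily than in weekly libraries by 0.66 ± 0.20 (edgeR adjusted p = 0.0456), a call kept in 5 of 18 fits without 1 library. In weekly prednisone against vehicle C1qb differed by 0.84 ± 0.20 (edgeR adjusted p = 0.156), which DESeq2 called (adjusted p = 0.0141). The fast-fiber genes Pvalb, Tnnc2 and Mylpf fell by 0.92 ± 0.14, 0.88 ± 0.15 and 0.58 ± 0.15 (edgeR adjusted p of 0.00109 to 0.0159). The globins Hbb-bt and Hbb-bs fell by 0.69 ± 0.14 and 0.66 ± 0.15 (edgeR adjusted p = 0.00460 and 0.00768), and Hba-a1 and Hba-a2 fell by 0.81 ± 0.14 and 0.82 ± 0.15 in daily against weekly libraries (edgeR adjusted p = 0.00732 and 0.00789). Atp2a1, the fast-fiber calcium pump, was higher in daily than in weekly libraries by 0.51 ± 0.14 (edgeR adjusted p = 0.0322, called in 13 of 18 fits). The other edgeR calls named here were made in 18 of 18 fits that left out 1 library. No endothelial, fibroblast, smooth muscle and pericyte or satellite cell marker was called in the daily comparison over both sexes. The largest differences in these lists, none of them called, were those of Emcn (−0.18), Col1a2 (−0.35), Pdgfrb (−0.32) and Pax7 (−0.71) for daily and of Tek (−0.17), Col3a1 (0.17), Acta2 (0.34) and Cdh15 (−0.28) for weekly prednisone. Pax7 passed without female weekly 1 and female daily 1 (−0.89, edgeR adjusted p = 0.0206). The part of these cells in the levels of the 10 genes was not tested.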
